A study of Mus musculus with 2 samples.

Results

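The SR and hnRNP splicing factors were followed in 2 clones of mouse epiblast stem cells (EpiSC), primed pluripotent cells that resemble the epiblast of an implanted embryo. EpiSC clone 2 and EpiSC clone 1 were profiled with 1 array each, and both were wildtype female cells of C57BL/6 background at passage 9. Members were all probes that are not controls and whose gene symbol on the array begins with Srsf or Sfrs and a digit, or with Hnrnp or Hnrp. This rule took 41 of the 22752 named genes of the array, read by 68 of its 39272 probes. Of the genes, 11 have a current Srsf symbol (20 probes), 9 are other genes with an older Sfrs symbol (11 probes) and 21 are hnRNP genes (37 probes). The array uses the older Sfrs symbols throughout, and current RefSeq symbols are used here.

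SR proteins carry RNA recognition motifs and a tail rich in arginine and serine, bind exonic enhancers and recruit the spliceosome. Kinases of the SRPK and CLK families phosphorylate the tail and thereby control where the proteins are and what they bind. hnRNPs coat nascent transcripts and often act against SR proteins by silencing exons, and many also act in mRNA export, stability and translation. Both families limit their own levels, in several members by splicing in exons that send the mRNA to nonsense-mediated decay.

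Levels are given as log2 of the processed signal after each array was scaled to its own 75th percentile (726 in clone 2 and 819 in clone 1), which is therefore 0. Differences are clone 2 minus clone 1 on that log2 scale. With 1 array per clone no difference has a replicate check, and no p-value was computed. Every member probe was printed once per array. Probes printed many times on an array had a median SD between spots of 0.08 log2 for clone 2 (264 probes) and 0.07 for clone 1 (260 probes), which gives a single-spot difference an SD of 0.11. That SD is between spots of 1 array and leaves out variation between arrays and cultures. Of all probes detected on both arrays, 45.7% differed by more than 2 such SD. A probe's signal depends on its sequence as well as on the RNA, so no probe's level is set against that of another.

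Markers of the labelled cell type were detected, and so were some of other cell types. All 7 EpiSC markers (Pou5f1, Nanog, Sox2, Fgf5, Otx2, Pou3f1 and Dnmt3b) were detected in both clones, and 4 of 5 naive markers (Zfp42, Dppa3, Prdm14 and Nr0b1) in neither. The other naive marker, Klf2, was detected in both, with -1.83 in clone 2 and -2.26 in clone 1. All 6 fibroblast markers were detected too, between -0.44 and 5.01 in clone 2 and between -0.48 and 4.88 in clone 1. Of 4 macrophage and blood markers, Csf1r and Lyz2 were detected in both clones, Cd68 in clone 2 only and Ptprc in clone 1 only. The 5 epithelial markers had a median difference of 1.17 log2, with clone 2 above clone 1 for each. Splicing factors are made by all these cells, and the part of other cells in their signal was not tested. In bulk RNA, fewer cells of a type and less RNA per cell cannot be told apart.

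SR and hnRNP transcripts were present in both clones at closely similar levels, with a small lean towards lower signal in clone 2. Of the 68 probes, 67 were well above background on both arrays, against 54.7% of all probes. None differed by 2-fold between clones. Over all probes detected on both arrays, 1.59% were at least 2-fold higher and 1.19% at least 2-fold lower in clone 2, so 0 of 67 is near the background. At 1.5-fold, no member was higher (5.61% of all probes) and 1 was lower (3.96% of all probes). The lean is in the small differences. The median of the 67 was -0.15 log2, with quartiles of -0.27 and -0.0019, beside 0.02 over all 21497 probes detected on both arrays. Of the 67, 50 (74.6%) were lower in clone 2, beside 46.6% of all probes. Across the 68 member probes the levels of the clones had a Pearson correlation of 0.997 (0.989 over all detected probes), a description across probes of the same 2 arrays.

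**Figure D1:**
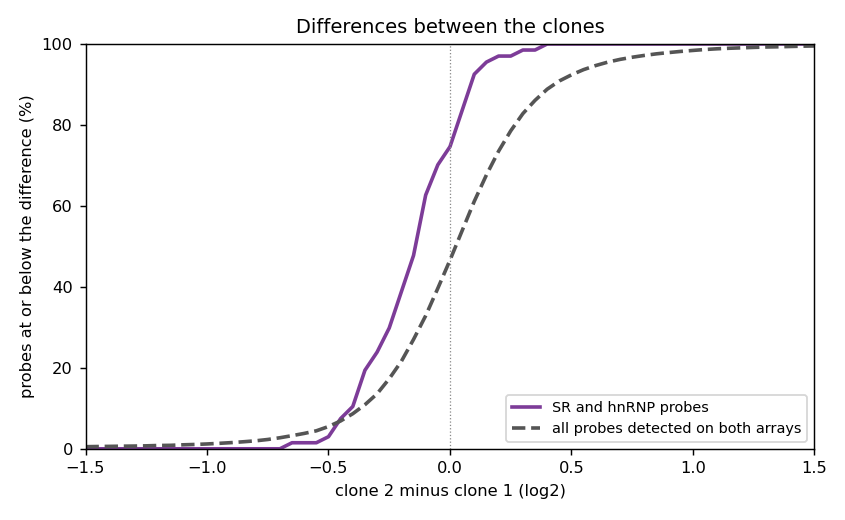
Share of probes (y axis, %) at or below each difference between clone 2 and clone 1 (x axis, log2), for the 67 SR and hnRNP probes (solid) and all 21497 probes (dashed) detected on both arrays. The solid curve lies left of the dashed one around 0 (medians -0.15 and 0.02) and ends sooner on both sides, at -0.66 and 0.37.

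By probe, the lean was similar in the 3 groups of genes, but by gene it was smaller in the SR proteins. The median difference was -0.14 over 19 SR protein probes (14 lower in clone 2), -0.18 over 11 probes of other Sfrs-named genes (8 lower) and -0.15 over 37 hnRNP probes (28 lower). With 1 value per gene, taken from its brightest probe, the median was -0.12 over 40 genes, with 28 lower, beside 0.05 over 13927 genes of the array. By this measure the SR proteins had -0.06 (6 of 10 lower) and the hnRNPs -0.14 (16 of 21 lower). Of the 67 probes, 25 were lower by more than 0.21 log2, which is 2 SD of a single-spot difference, and 2 (Srsf2 and Srsf4) were higher by more than that, beside 20.5% and 25.2% of all probes. The share of member probes lower in clone 2 depended on the scaling. It was 85.1% after quantile normalization (51.3% of all probes) and 86.6% in the authors' deposited values (51.8% of all probes).

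Among the SR proteins, Srsf1, the founding member of the family, was lower in clone 2 by all 3 of its probes. In the order of their start in the transcript they read 2.82, -0.25 and 0.97 in clone 2 and 2.97, 0.15 and 1.22 in clone 1. The differences were -0.15, -0.40 and -0.26, of which the last 2 exceed 0.21. Srsf10, known to repress splicing when it loses its phosphates in mitosis or heat shock, was also lower by all 3 probes, with -3.07, 0.10 and -2.05 in clone 2 and -2.93, 0.40 and -1.69 in clone 1. Its brightest probe differed by -0.31. The dim first probe differed by -0.14, which became 0.34 with normexp correction.

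Srsf3, a small SR protein that also acts in mRNA export, had 3.84, 4.02 and -0.93 in clone 2 and 4.03, 4.12 and -0.84 in clone 1. Its 3 differences were -0.19, -0.11 and -0.09. In the authors' deposited values they were -0.33, -0.25 and -0.05, so the first and second passed 0.21 there, as they did with quantile normalization (-0.31 and -0.23). The first of these probes lies early in the transcript (bases 261 to 320, chr17:29173333-29173392 in mm9, plus strand), and is shown as the Srsf3 probe with the largest difference, which was -0.40 with normexp correction.
Srsf3 probe 1: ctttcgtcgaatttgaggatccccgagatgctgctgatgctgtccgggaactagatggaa

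Higher in clone 2 were Srsf2 and Srsf4. Srsf2, a component of nuclear speckles, had 0.82 and 1.58 in clone 2 and 0.54 and 1.52 in clone 1, so its probes differed by 0.28 and 0.05. The sign of the second, brighter probe turned with the scaling. It was -0.02 in the authors' deposited values, -0.02 with quantile normalization and -0.10 with normexp correction. The spot of the first probe lay beside another spot with a 2-fold difference in the same direction. Srsf4, read by 1 probe, had 2.98 in clone 2 and 2.61 in clone 1. Its difference of 0.37, or 1.29-fold, was the highest of all members and was 0.15 with normexp background correction.

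Srsf5 had 2.62 in clone 2 and 2.84 in clone 1, and Srsf11 had 2.47 in clone 2 and 2.60 in clone 1. Srsf7, which carries a zinc knuckle beside its RNA recognition motif, had 4.34 and 0.77 in clone 2 and 4.33 and 1.03 in clone 1. Its brighter probe differed by 0.00 and the other by -0.26. Srsf9 had 3.60 in clone 2 and 3.61 in clone 1. Srsf5 differed by -0.22 and Srsf11 by -0.13, which became -0.23 in the authors' deposited values and -0.29 with normexp correction. Srsf9 (-0.01) and the brighter Srsf7 probe lay within 0.21 in each scaling, with normexp values of -0.19 for both.

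Srsf6 was read differently by its probes. Its first had 1.53 in clone 2 and 1.46 in clone 1, and its second, which starts 3179 bases into the transcript, had 0.52 in clone 2 and 1.02 in clone 1. The differences were 0.07 and -0.50. Srsf12, a less widely made member, was the only gene not detected on both arrays. Its probe had -4.24 in clone 2, where it was detected, and -4.54 in clone 1, where it was not well above background. The 2 readings were 1.23-fold apart, which sets no lower bound. Differences of all probes below a level of -2 had an SD of 0.48. The dimmest detected probe of any gene had -4.55 in clone 2 and -4.54 in clone 1, so Srsf12 lies near the limit of detection.

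Probes of 3 SR genes are shown for a short motif that, where it lies in frame, can code for arginine followed by serine, the unit repeated in the tail. Reading frames were not annotated for these probes. Capitals mark every match to CGNTCN or AGNTCN on the strand shown, including overlapping matches. At least 1 match occurs in 22.6% of the 39272 probes of this length on that strand and in 24.6% on the opposite strand. The Srsf5 probe has 4 matches, and 3 or more occur in 0.234% of probes. The Srsf2 and Srsf11 probes have 2 each. A match describes the letters only. The probes lie at chr11:116713385-116713444 (minus strand), chr12:82050878-82050937 (plus) and chr3:157675744-157675803 (minus) in mm9.
Srsf2 probe 1: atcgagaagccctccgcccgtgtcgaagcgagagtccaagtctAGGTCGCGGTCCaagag
Srsf5: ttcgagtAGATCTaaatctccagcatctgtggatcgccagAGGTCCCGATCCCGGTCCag
Srsf11: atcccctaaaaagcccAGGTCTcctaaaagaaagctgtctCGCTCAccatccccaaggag

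**Figure D2:**
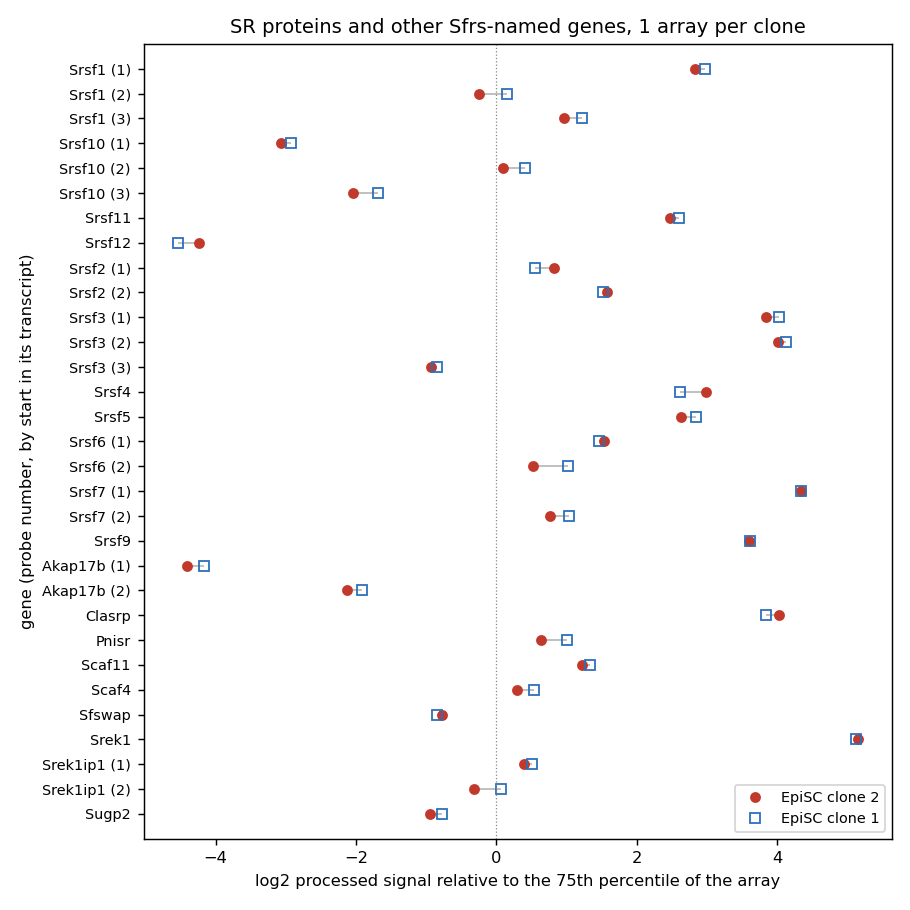
Level of each SR protein probe and each probe of the other Sfrs-named genes (x axis, log2 of the processed signal scaled to the array's 75th percentile) in EpiSC clone 2 (filled circles) and EpiSC clone 1 (open squares), with 1 array per clone. Most pairs lie close together, with clone 2 to the left for Srsf1 and Srsf10 and to the right for Srsf2 and Srsf4.

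The 9 other genes with an older Sfrs symbol are mostly RS-rich cofactors. Pnisr, a nuclear RS-rich protein, had 0.64 in clone 2 and 1.01 in clone 1, a difference of -0.37. Srek1ip1 was lower by both probes (-0.12 and -0.38), as was Akap17b (-0.24 and -0.21). Akap17b was dim, with -4.41 and -2.13 in clone 2 and -4.17 and -1.92 in clone 1, and both signs turned with normexp correction (to 0.45 and 0.06). Scaf4 (-0.23), Sugp2 (-0.18, but 0.02 with normexp correction) and Scaf11 (-0.12) were lower in clone 2 too. Clasrp, a partner of the kinase Clk4, had 4.02 in clone 2 and 3.84 in clone 1, a difference of 0.18 that became -0.03 with normexp correction. Sfswap differed by 0.07.

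The Srek1 probe had 5.16 in clone 2 and 5.12 in clone 1, but these values cannot be assigned to Srek1. The probe holds an unbroken repeat of G and T of 32 bases and shares a run of at least 20 bases with 53 probes of other genes, all 53 of them detected on both arrays. Of the other members, 3 probes share such a run with a probe of another gene. These are the second probe of Hnrnpc, the probe of Hnrnpl and the fifth of Hnrnpa3.

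The hnRNPs of the A and B group bind exonic and intronic silencers and shuttle between nucleus and cytoplasm. Hnrnpa3, with 7 probes, held the member probe that differed most. That probe had 1.23 in clone 2 and 1.89 in clone 1, a difference of -0.66 (1.58-fold higher in clone 1), and lies over 144 bases of the genome, so it crosses an intron. The second probe, further along the same transcript, had 2.90 in clone 2 and 3.34 in clone 1, a difference of -0.45. It lies over 705 bases of the genome and so crosses an intron too. The next 3 probes differed by -0.05, 0.06 and -0.03, at levels of 6.52, 3.83 and 5.33 in clone 2 and 6.57, 3.76 and 5.36 in clone 1. The last 2 differed by -0.17 and -0.33. All probes from the third on are placed on another transcript of the gene than the first 2. The brightest probe, the third by start, moved most with the scaling, to -0.29 in the authors' deposited values, -0.26 with quantile normalization and -0.24 with normexp correction. One gene thus spanned 0.73 log2 between its own probes, more than any other member.

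The 2 probes of Hnrnpa1, which are placed on different transcripts of the gene, also disagreed. The early probe had 0.76 in clone 2 and 1.27 in clone 1, a difference of -0.51, and the late one had 4.44 in clone 2 and 4.41 in clone 1, a difference of 0.03. The 2 genes are paralogs, and whether these early probes each read RNA of the other gene was not tested. The late Hnrnpa1 probe was below 0 with quantile normalization (-0.09), the authors' deposited values (-0.11) and normexp correction (-0.12). The Hnrnpa3 probe is shown because it was the 1 member at least 1.5-fold apart. It lies at bases 644 to 703 of the transcript (chr2:75500576-75500719 in mm9, plus strand).
Hnrnpa3 probe 1: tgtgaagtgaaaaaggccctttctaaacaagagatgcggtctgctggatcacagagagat

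The symbol Hnrnpa1l2 on the array now belongs to a pseudogene, Hnrnpa1l2-ps. Its probes differed by 0.01 and -0.49, and whether they read RNA of Hnrnpa1 was not tested. Hnrnpa2b1 had 3.04 in clone 2 and 3.49 in clone 1 by its first probe, a difference of -0.45. Its second probe was dim (-4.35 in clone 2 and -4.16 in clone 1), and its difference of -0.19 became 0.54 with normexp correction. Hnrnpa0, a gene of the same group, was lower by both probes (-0.23 and -0.10).

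Hnrnpab had 5.25 and 4.74 in clone 2 and 5.70 and 4.67 in clone 1, so its probes differed by -0.45 and 0.07. The spot of the first probe lay beside a spot with a 2-fold difference in the same direction. It reads bases 1032 to 1091 of the transcript (chr11:51414914-51414973 in mm9, minus strand) and is shown because it gave a larger difference than the later probe. The later probe was also below 0 with quantile normalization (-0.09), the authors' deposited values (-0.08) and normexp correction (-0.19).
Hnrnpab probe 1: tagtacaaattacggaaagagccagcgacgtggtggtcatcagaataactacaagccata

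Hnrnpc, which binds uridine tracts and packages nascent RNA, did not differ by more than the spot noise. It had 3.15 and 5.68 in clone 2 and 3.20 and 5.64 in clone 1 (-0.05 and 0.04). Hnrnpd, known for binding AU-rich elements of unstable mRNAs, had 3.91 in clone 2 and 4.03 in clone 1. Its relative Hnrnpdl was lower by both probes (-0.19 and -0.28), the first of which also lay beside a 2-fold spot. Hnrnpd and Hnrnpdl are neighbours, with probes 72 kb apart on chromosome 5 in mm9.

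The F and H group binds G tracts. All 4 of these genes were lower in clone 2 by every probe. Hnrnpf had 0.90 and 5.09 in clone 2 and 1.05 and 5.28 in clone 1 (-0.15 and -0.20). Hnrnph1 had 4.75 in clone 2 and 4.89 in clone 1 (-0.14). Hnrnph2 had 0.23 in clone 2 and 0.62 in clone 1, a difference of -0.39, and Hnrnph3 had -0.95 in clone 2 and -0.71 in clone 1. The later Hnrnpf probe and the Hnrnph1 probe share 49 of 58 overlapping bases (84.5%), and whether each reads RNA of the other gene was not tested.

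Hnrnpk, whose KH domains bind C-rich sequence, was read by 2 probes that lie end to end in the transcript. The first had 1.12 in clone 2 and 1.19 in clone 1, and the second had 2.18 in clone 2 and 2.57 in clone 1. The differences, -0.07 and -0.39, were 0.31 log2 apart although the probes read adjacent stretches. They are shown as an example of how probes of one transcript disagreed on these arrays, and not as the largest such case. They cover bases 1391 to 1510 of the transcript, at chr13:58494618-58494677 and chr13:58494558-58494617 in mm9, on the minus strand.
Hnrnpk probe 1: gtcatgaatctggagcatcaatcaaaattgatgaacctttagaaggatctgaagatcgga
Hnrnpk probe 2: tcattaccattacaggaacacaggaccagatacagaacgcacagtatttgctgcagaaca

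Of the remaining hnRNPs, Hnrnpu, a nuclear scaffold protein that binds Xist RNA, had 2.95 in clone 2 and 3.28 in clone 1 (-0.33). Hnrnpm had 4.28 in clone 2 and 4.54 in clone 1 (-0.26). Hnrnpr had 2.69 in clone 2 and 2.78 in clone 1 (-0.09). Hnrnpl, a protein that binds CA repeats, had 0.53 in clone 2 and 0.51 in clone 1 (0.03), and its relative Hnrnpll, known for splicing of Cd45 in T cells, had 3.71 in clone 2 and 3.57 in clone 1 (0.14). These 3 stayed within 0.21, except Hnrnpr with normexp correction (-0.23). Hnrnpul2 (0.14) and both probes of Hnrnpul1 (0.10 and -0.10) did too, except the first Hnrnpul1 probe with normexp correction (0.44). Hnrnpll and Hnrnpul2 were, with Hnrnpul1 by its dimmer probe, the hnRNPs furthest above 0.

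**Figure D3:**
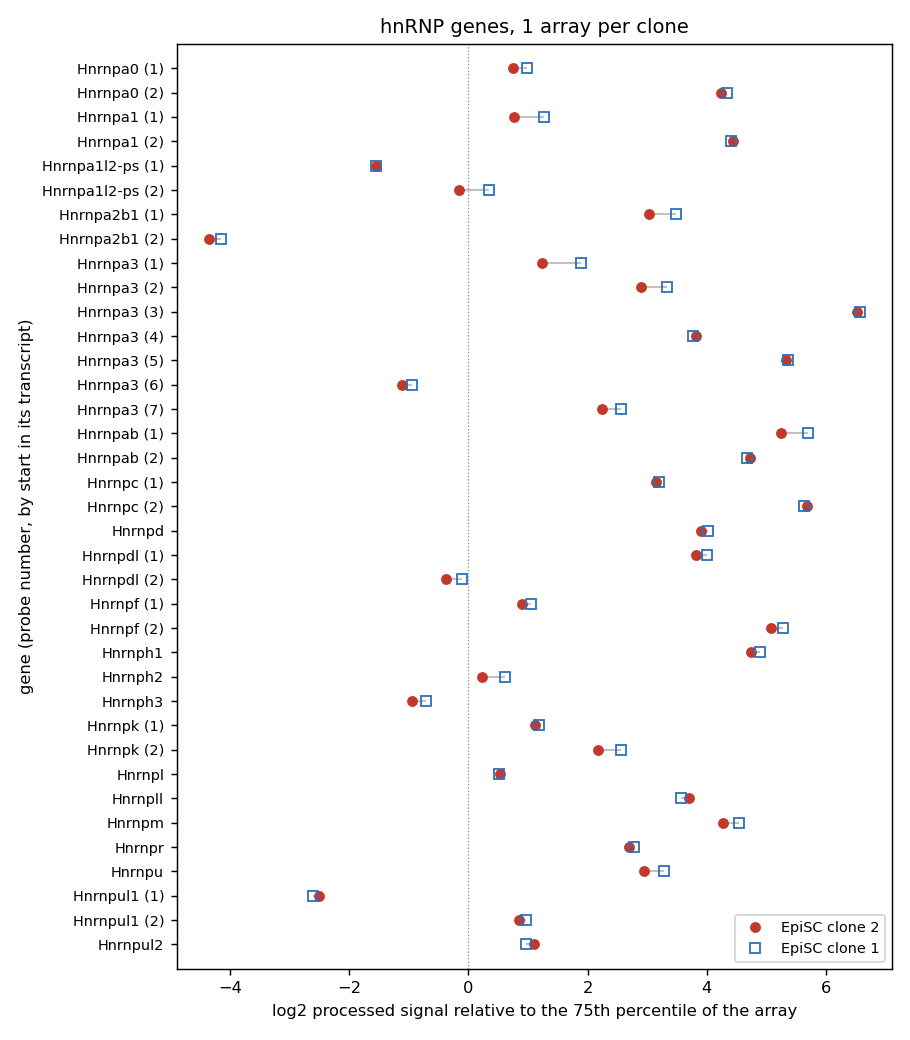
Level of each hnRNP probe (x axis, log2 of the processed signal scaled to the array's 75th percentile) in EpiSC clone 2 (filled circles) and EpiSC clone 1 (open squares), with 1 array per clone. Clone 2 lies left of clone 1 for 28 of 37 probes, furthest for the first probe of Hnrnpa3 (-0.66), where the probes of 1 gene lie between -0.66 and 0.06.

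For 19 member genes, 2 or more probes were detected on both arrays. All probes were lower in clone 2 for 10 of them, all were higher for 1 (Srsf2), and 8 had probes of both signs. This tally depended on the scaling. With quantile normalization and with the authors' deposited values it was 15 all lower, 0 all higher and 4 of both signs. The differences of a gene's probes spanned a median of 0.25 log2, beside 0.23 over 3493 such genes of the array. Over 0.5 log2 were Hnrnpa3, Srsf6, Hnrnpa1 and Hnrnpab, which is 4 of 19, beside 16.9% of all such genes. Start in the transcript gave no common order. Of 13 genes whose probes are all placed on 1 transcript, the first probe had the lower difference in 6. Hnrnpab was such a case, and Srsf6 went the other way.

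**Figure D4:**
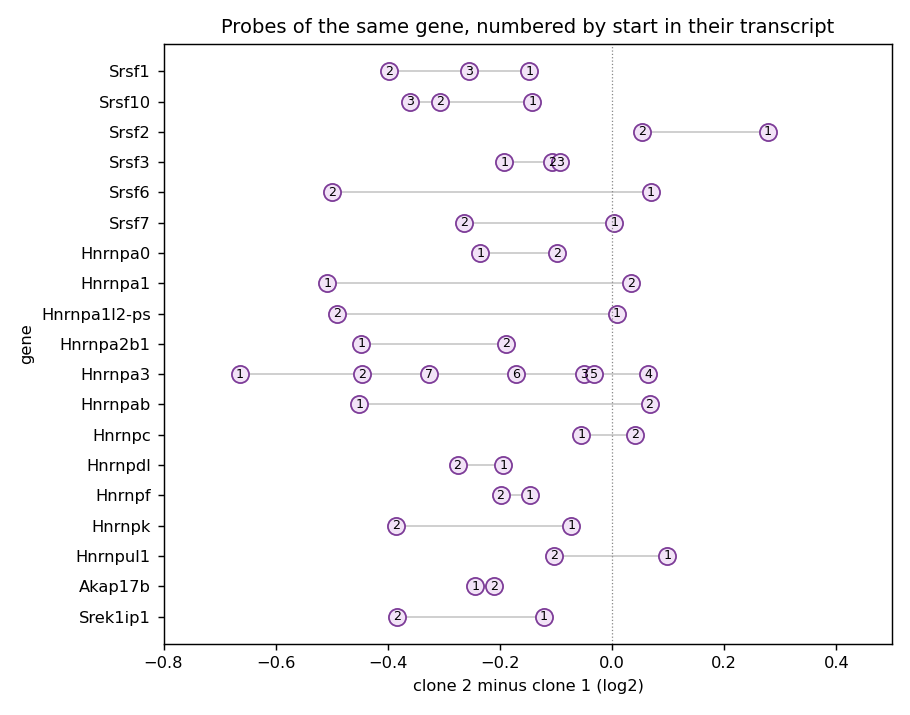
Difference between clone 2 and clone 1 (x axis, log2) for every probe detected on both arrays of the 19 member genes with 2 or more such probes. Numbers give the order of the probes by start in their transcript, and lines join the lowest and highest probe of a gene, furthest apart for Hnrnpa3 (-0.66 and 0.06).

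The lean was also read within ranges of signal, since bright probes of the whole array were higher in clone 2. Over all probes the median difference was -0.03 below a level of -2, -0.04 between -2 and 0, 0.03 between 0 and 2, 0.09 between 2 and 4 and 0.13 above 4. Member probes in the same ranges had -0.19 (n = 5), -0.21 (n = 10), -0.23 (n = 21), -0.14 (n = 18) and -0.05 (n = 13). The median of the members was below that of all probes in every range. Member probes were also poorer in G and C, with a median of 38.3% against 43.3% over all detected probes. In 5 ranges of G and C content, with bounds at 35, 40, 45 and 50%, the median difference of all probes was 0.17, 0.04, 0.02, 0.01 and 0.02. That of the members was -0.07 (n = 4, of which 2 were lower), -0.14 (n = 33), -0.30 (n = 12), -0.08 (n = 10) and -0.18 (n = 8). The part of G and C content in the lean was not tested.

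Member promoters were mostly richer in CpG than the median gene, with a wide spread. RefSeq (GRCm38.p6) windows of 300 bases, from 250 before to 50 after the start, were matched for 37 of the 41 genes. They held a median of 28 CpG dinucleotides, from 7 at Hnrnpf to 52 at Hnrnpa0, beside a median of 7 over 27025 genes, and no comparison with other expressed genes was made. Their median G and C content was 65.0%, with values between 48.3% and 80.0%, beside a median of 52.7%. The letters TATAAA, searched on the gene's strand in the 50 bases before the start, occurred in 2 of 37 (Srsf2 and Srsf3), or 5.41%, beside 2.88% of all genes. The 41 genes lie on 18 chromosomes.

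The kinases of SR proteins and their import receptor Tnpo3 were detected in both clones in 9 of 10 cases, all but the muscle kinase Srpk3. Their median difference was -0.14, with 6 of 9 lower in clone 2. Over 13927 genes of the array, 5.75% were at least 1.5-fold higher and 3.32% at least 1.5-fold lower in clone 2. By their brightest probe, none of these 9 was either. The genes of this list with a second probe had a lower difference by it. Prpf4b differed by -0.63 (-0.39 by the brightest), which passed 1.5-fold, and Clk4 by -0.45 (-0.22). Dyrk1a differed by -0.55, against 0.17 by the brightest. Srpk1 had 0.44 in clone 2 and 0.69 in clone 1, and Clk1 had 0.35 in clone 2 and 0.69 in clone 1. Tnpo3 had 3.75 in clone 2 and 3.39 in clone 1.

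Of 17 SR-related cofactors, 16 had a probe and 14 were measured on both arrays, with a median of -0.09 and 9 lower in clone 2. That median was -0.23 in the authors' deposited values and -0.21 with quantile normalization, where that of the member probes was -0.23 and -0.21 too. The measures are unlike, since the members were counted by probe and the cofactors by 1 value per gene. With 1 value per gene the members had -0.12 in the main scaling. Bclaf1, an RS-rich protein of mRNA processing complexes, had 2.22 in clone 2 and 2.82 in clone 1 and was 1.51-fold higher in clone 1, with its second probe at -0.49. Acin1, a partner of the exon junction complex, had 2.76 in clone 2 and 1.71 in clone 1, which is 2.07-fold, while its other probe differed by 0.11. The 1 probe of Tra2b was not detected on either array, and the neural factor Srrm4 was detected in clone 1 only. No probe was matched to Luc7l3. The brightest probe of Luc7l2 (0.42) shares a run of at least 20 bases with the Srek1 probe, and whether it reads Luc7l2 alone was not tested. Its other probes differed by -0.39 and -0.04.

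The hnRNP-like proteins that go by other names, such as Ptbp1 and Pcbp1, were all detected in both clones, 17 of 17. Their median was -0.04, with 9 lower in clone 2, and none was 1.5-fold apart. The median was -0.17 in the authors' deposited values and -0.16 with quantile normalization. Ptbp1, which silences exons through pyrimidine tracts, had 4.14 in clone 2 and 3.96 in clone 1, and its neural paralog Ptbp2 had -0.56 in clone 2 and -0.39 in clone 1. Core U1 and U2 snRNP proteins and branch point factors were detected in 24 of 24 cases, with a median of 0.02 and 11 lower. Snrpc, a protein of the U1 snRNP, was 1.54-fold higher in clone 2 (3.79 in clone 2 and 3.16 in clone 1). Dimmer probes disagreed with the brightest for 2 genes of this list, chosen here after their values were seen. Of the 3 probes of Snrpn, a dimmer one differed by -1.60, against -0.29 by the brightest and -0.29 by the other. The dimmer probe of U2af1 differed by -0.66, against 0.07. Genes of nonsense-mediated decay had a median of -0.04, with 5 of 9 lower and none 1.5-fold apart. Among them Upf2 had -0.69 in clone 2 and -0.19 in clone 1. Smg8 was not detected in either clone.

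Regulators of splicing that are restricted to certain cell types included genes over 2-fold apart. Of 27, 25 were measured on both arrays, with a median of 0.05 (0.27 with normexp correction) and 9 lower in clone 2. The 4 genes at least 1.5-fold apart were all higher in clone 2, which is 4 of 25 beside 5.75% of all genes. Of these, 3 (Esrp2, Celf5 and Rbm47) had levels below 0, where differences of all probes were more spread (SD 0.48 below a level of -2 and 0.45 between -2 and 0, beside 0.30 between 2 and 4). Esrp2, an epithelial splicing regulator, had -1.83 in clone 2 and -3.62 in clone 1 (3.47-fold), and its paralog Esrp1 had 1.83 in clone 2 and 0.72 in clone 1 (2.16-fold, and 0.73 log2 by its second probe). Rbm47, an epithelial RNA-binding protein, was 1.68-fold and Celf5 1.72-fold higher. The epithelial markers Cldn7, Krt8, Krt18, Cdh1 and Epcam were higher in clone 2 beside them, and the part of such markers was not tested. They differed by 1.83, 1.30 (0.54 by the second Krt8 probe), 1.17, 0.94 and 0.13 log2. Khdrbs2 and Rbm20 were not detected in either clone.

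**Figure D5:**
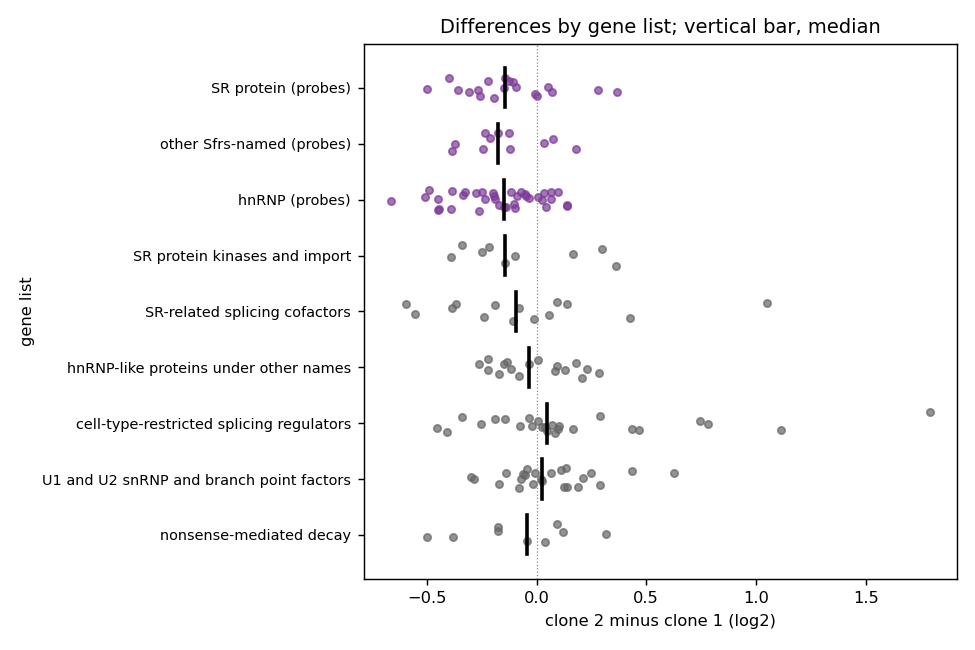
Differences between clone 2 and clone 1 (x axis, log2) of the 67 SR and hnRNP probes in 3 groups (purple) and of the genes of 6 further lists of splicing genes (grey, 1 value per gene), with the median as a vertical bar. The 3 groups of members have medians between -0.18 and -0.14 and no point beyond -0.66 or 0.37, while Esrp2 (1.79), Esrp1 (1.11) and Acin1 (1.05) stand far to the right in theirs.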

How the data were processed

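The authors deposited 1-colour Agilent scanner files (design 026655, Feature Extraction 11.0.1.1, protocol GE1_1100_Jul11, mm9 probe positions, per the file headers). Cy3-labelled cRNA came from 0.2 ug of total RNA, per the labels' protocols. The processed intensity was background-subtracted and detrended within each array, per the file headers, and not normalized between arrays. The deposited table of normalized intensity, was an alternative (its method: not given in the sources used here).

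Of 43020 spots that are not controls, 246 (clone 2) and 277 (clone 1) with outlier flags were left out. Log2 signals were averaged per probe and the array's 75th percentile was subtracted. Detection required the well-above-background flag on 50% or more of a probe's spots. Of the 68 member probes, 65 were named by accession and 3 by an older symbol through RefSeq (GRCm38.p6). A gene's value is that of its brightest probe. The fold for a gene detected on 1 array uses, for the other array, the higher of its own dim value and the lowest detected signal there.

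Members and gene lists were chosen with earlier results of these data known. All members may be named. In the 6 further lists, genes at least 1.5-fold apart or not detected are named, with at most 3 examples. In the list of SR protein kinases and import, genes with a second probe are named too. Nothing separates the clones from their arrays, and 1 array per clone limits the precision. Python 3.11.15, pandas 2.3.3, R 4.3.3 and limma 3.58.1 (normexp) were used.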

Additional observations from a re-analysis of the deposited data

How the results depend on the processing

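The median difference of the SR and hnRNP probes stayed below 0 in quantile normalization (-0.21), normexp background correction (-0.19), the authors' deposited values (-0.23), the positive and significant flag (-0.14), kept outlier-flagged spots (-0.14) and without spots beside a 2-fold difference (-0.14). The median of all probes was 0.13 with normexp correction and between -0.01 and 0.03 in the others, and the members' median lay 0.16 to 0.31 below it. Of 67 member probes, 44 were lower and 7 higher in clone 2 in all these settings that kept them, and 16 changed sign. No probe was 2-fold apart in any of them, and 4 were at least 1.5-fold lower in at least 1. At a 1.5-fold threshold the count of lower probes was 1 in place of 0. With 1 value per gene, 40 genes were detected on both arrays in place of 67 probes, as there are fewer genes than probes. The median over all 6 further lists was -8.4e-05, and it was 0.00831 with outlier-flagged spots kept and 0.00476 without spots beside a 2-fold difference. Over all probes of these lists it was -0.04. The median of the U1 and U2 snRNP list was 0.02 and became -0.10 with quantile normalization, -0.10 with the authors' values and -0.13 with normexp correction; the cause was not tested. Among the other lists, the medians of the SR-related cofactors and the hnRNP-like proteins were lower in the authors' values (-0.23 and -0.17) and with quantile normalization (-0.21 and -0.16), and that of the cell-type-restricted regulators was 0.27 with normexp correction. No paired analysis was possible because each clone has 1 array. For the same reason no array could be left out. Dim probes limit Srsf12, Akap17b, the first Srsf10 probe and the second Hnrnpa2b1 probe.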
